A study of Mus musculus with 25 samples.

Results

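The immediate early genes described here are 10 genes that are switched on within minutes when a cell is stimulated or stressed, and they were chosen by name: Fos, Fosb, Jun, Junb, Egr1, Ier3, Atf3, Klf4, Klf6 and Nr4a1. They are 10 of the 47729 genes listed in the bulk table, and all 10 were among the 15773 genes that passed the filter on low counts and were tested. Their RNA was followed in lineage-negative lung cells, sorted as live cells without CD45, CD31 or CD326 to enrich for fibroblasts. In bulk RNA-seq there were 20 libraries in 5 groups of 4, and in single-cell RNA-seq there were 5 libraries, 1 per group, each from 4 pooled mice. All mice, controls included, carried Col1a1-CreERT2 and Fas fl/fl, a Cre recombinase that tamoxifen activates in cells using the Col1a1 promoter and a Fas gene whose exon 9 can be removed. Naive mice, labelled Control, received no bleomycin, and whether they received oil or tamoxifen is not given in the sources used here. Bleomycin, a drug that injures the lung and causes fibrosis, was given into the trachea of the other mice, which then received corn oil (here Fas+/+, labelled WT) or tamoxifen (here Fas-/-, labelled FasDel) and were studied at 3 or 6 weeks. Ages are not given in the sources used here. Tamoxifen and the loss of Fas always went together, so their effects cannot be told apart. The study's methods describe replicates in general as individual animals, but the labels do not tie the bulk libraries to mice, so p-values are taken to measure the spread between these libraries.

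Most immediate early genes encode transcription factors. Fos and Jun family proteins pair to form AP-1, which binds DNA and switches on a later set of genes. Kinase cascades acting on serum response factor and CREB turn the genes on without new protein synthesis, and the RNAs are short-lived. In fibroblasts they respond to growth factors, to mechanical and oxidative stress, and to tissue digestion, in which enzymes and warmth release cells from their matrix. All cells studied here were released by collagenase, dispase, elastase and trypsin at 37 °C, and no undigested tissue was measured, so RNA present in the lung and RNA made during digestion cannot be told apart.

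Promoter sequence is given for 4 of the genes, because they cover the range of the responses below: Fos and Fosb, which were lower in Fas+/+ libraries at 3 weeks, Nr4a1, whose naive libraries were above most others, and Ier3, which rose in every injured group. Each runs from 250 bases before to 50 bases after the start of transcription, 5′ to 3′ on the strand of the gene, from RefSeq (GRCm38.p6). Capitals mark TGACG, the core letters of a cyclic AMP response element, which CREB binds, or its reverse complement CGTCA.
Fos, chr12:85473640-85473939, plus strand: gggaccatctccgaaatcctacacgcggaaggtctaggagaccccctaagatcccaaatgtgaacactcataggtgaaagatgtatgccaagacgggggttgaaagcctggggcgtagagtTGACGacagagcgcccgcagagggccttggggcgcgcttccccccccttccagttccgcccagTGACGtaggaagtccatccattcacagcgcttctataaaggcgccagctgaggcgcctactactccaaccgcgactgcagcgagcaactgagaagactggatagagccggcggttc
Fosb, chr7:19309996-19310295, minus strand: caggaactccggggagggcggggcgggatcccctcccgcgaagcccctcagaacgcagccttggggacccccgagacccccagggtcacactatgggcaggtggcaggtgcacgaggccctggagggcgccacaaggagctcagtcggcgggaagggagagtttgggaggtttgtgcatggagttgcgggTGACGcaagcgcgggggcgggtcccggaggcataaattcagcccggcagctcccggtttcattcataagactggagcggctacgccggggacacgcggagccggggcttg
Nr4a1, chr15:101266596-101266895, plus strand: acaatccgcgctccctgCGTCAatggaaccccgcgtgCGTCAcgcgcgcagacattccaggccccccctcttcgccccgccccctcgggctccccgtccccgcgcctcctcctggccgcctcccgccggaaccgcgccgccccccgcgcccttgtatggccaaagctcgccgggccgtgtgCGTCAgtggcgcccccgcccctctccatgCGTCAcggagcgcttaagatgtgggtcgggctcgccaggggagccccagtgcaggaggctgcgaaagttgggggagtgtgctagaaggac
Ier3, chr17:35821463-35821762, plus strand: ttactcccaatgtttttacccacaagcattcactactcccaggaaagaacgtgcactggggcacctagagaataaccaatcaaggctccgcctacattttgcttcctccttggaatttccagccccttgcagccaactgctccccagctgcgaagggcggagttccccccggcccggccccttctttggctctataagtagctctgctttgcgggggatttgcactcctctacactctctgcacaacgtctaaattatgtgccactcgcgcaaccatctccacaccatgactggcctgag

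RefSeq promoters were matched for 9 of the 10 genes. TGACG on either strand was found in 6 of the 9, whereas 20.8% of 32851 promoters of the same length hold it. Nr4a1 held 4 copies, at 233, 213, 69 and 40 bases before the start, Fos held 2, at 129 and 66 bases, and Fosb held 1, at 60 bases. Junb, Atf3 and Klf4 held 1 each, and none was found in Ier3, Jun or Klf6. The full element TGACGTCA, which contains those letters and is in 1.79% of promoters, was in none of the 9 windows. Neither was the AP-1 site TGACTCA or its reverse complement TGAGTCA (5.2% of promoters), nor the CArG box to which serum response factor binds (1.63%). These are matches of letters in a short window and say nothing of binding.

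Total counts per bulk library ran from 11819700 to 25189096, with a median of 20122870. Levels are given as CPM, counts scaled to the TMM-normalized library size, and changes as log2 fold changes from edgeR's quasi-likelihood test across all tested genes, called at a Benjamini-Hochberg adjusted p of 0.05. The Fas gene could not check the labels, because counts of the whole gene do not show exon 9 alone. Fas was at 33.97 to 57.7 CPM in Fas+/+ and 34.4 to 64.9 CPM in Fas-/- libraries at 3 weeks. At 6 weeks it was at 26.15 to 39.72 CPM in Fas+/+ and 35.56 to 46.57 CPM in Fas-/- libraries. Markers of cells outside the fibroblast gate differed between groups, with no marker at 0 in any group. The summed level of 6 blood endothelial markers was 124 to 350.6 CPM in naive libraries, 1890 to 7427 in Fas+/+ and 501 to 6801 in Fas-/- libraries at 3 weeks, and 369 to 1407 and 73.4 to 2197 at 6 weeks. Summed markers of red cells (5 genes) were 2979 to 9590 CPM in naive libraries and 17.1 to 234.9 CPM in the other 16. In bulk samples, more cells of a type and more RNA per cell cannot be told apart. Within each injured group, the library with the highest summed blood endothelial markers was replicate 1 of Fas+/+ and replicate 4 of Fas-/- at 3 weeks, and replicate 2 of both at 6 weeks, and values that move most with these libraries are also given without them. At 3 weeks these libraries were also the lowest of their groups in 7 profibrotic fibroblast markers. Their summed level was 10880 CPM in Fas+/+ (others 46040 to 56100) and 19590 in Fas-/- (others 38440 to 48180). Values at 3 weeks without them therefore also leave out the library lowest in these markers.

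In naive libraries the 10 genes together took 8201 ± 964 CPM (SD, n = 4), which is 0.82% of all counts. Per kilobase of exon, the naive level was highest for Fos (537 CPM per kb), Jun (521), Egr1 (408), Nr4a1 (351) and Junb (312). It was lower for Fosb (139), Klf4 (74.4), Atf3 (58.7) and Klf6 (56.5), and lowest for Ier3 (23.2). The summed level was 6452 ± 1120 CPM in Fas+/+ and 7884 ± 3370 in Fas-/- libraries at 3 weeks, and 6708 ± 1610 and 6887 ± 580 at 6 weeks (n = 4 each). The summed ranges of all 4 injured groups overlapped the naive range of 7443 to 9584 CPM. Replicate 4 of the Fas-/- group at 3 weeks stood apart, at 12910 CPM where the other libraries of its group were at 5772 to 6527.

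**Figure D1:**
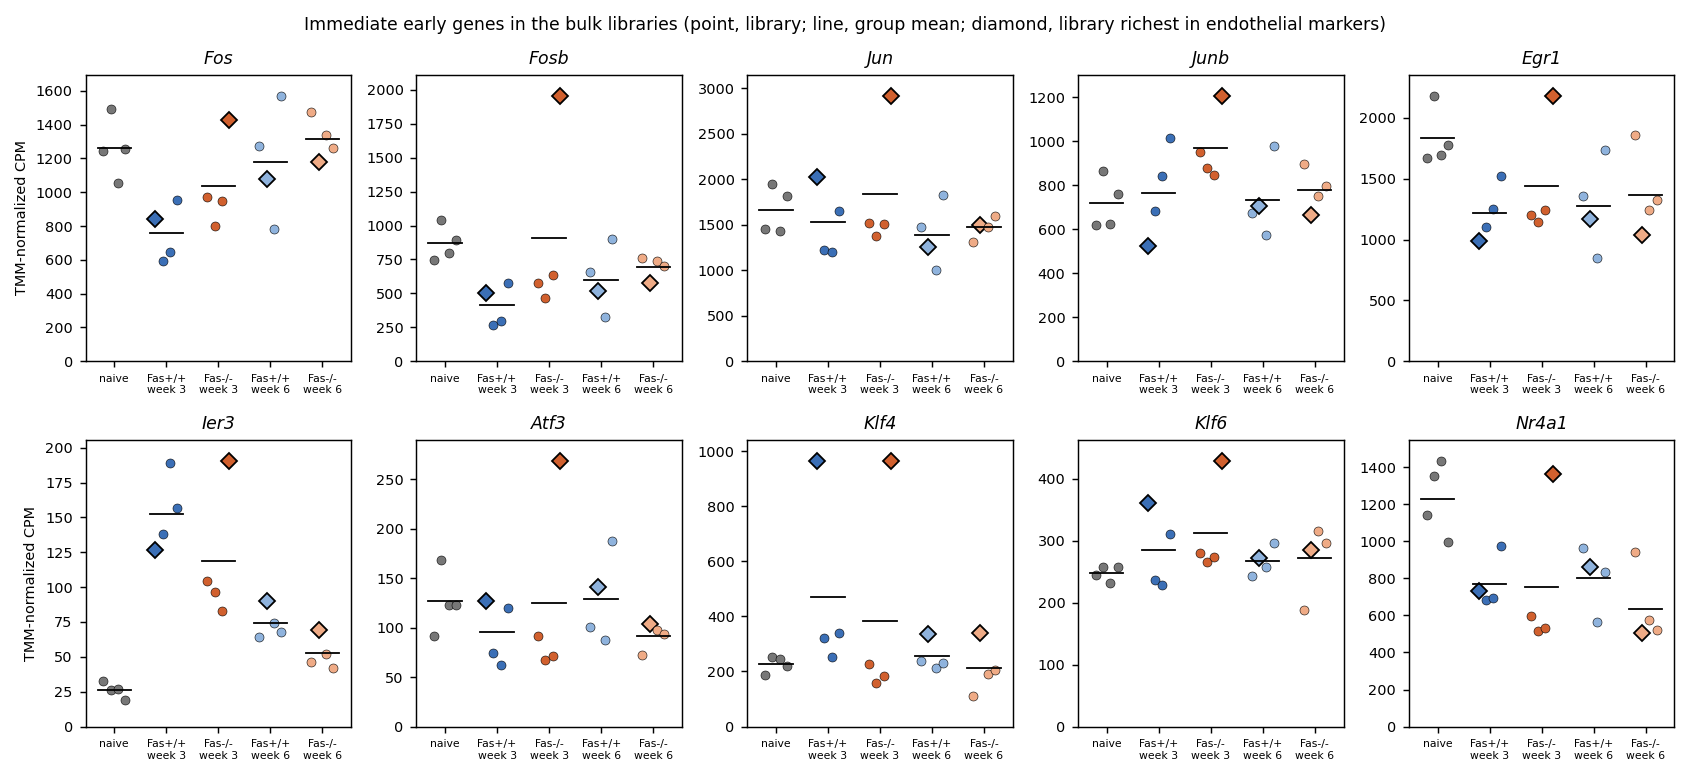
Level of each immediate early gene (CPM, y axis) in every bulk library of the 5 groups (x axis), with diamonds for the library of each injured group that is richest in blood endothelial markers. Ier3 lies at 18.96 to 32.8 CPM in naive libraries and above that in all 16 others, whereas 7 of the genes have their highest Fas-/- library at 3 weeks far from the other libraries of that group.

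Against naive libraries, few of the 10 genes passed the test and Ier3 was the only gene that did so in every injured group. In Fas+/+ libraries at 3 weeks 1 gene was called higher (22.1% of all tested genes were) and 2 were called lower (19.2% of all). In Fas-/- libraries at 3 weeks 1 was called higher (background 17.2%) and 0 lower (background 14.8%). At 6 weeks 1 was called higher in Fas+/+ (background 3.57%) and 1 in Fas-/- libraries (3.66%), with 0 called lower in either (1.74% and 2.81%). The median log2 fold change of the 10 genes was -0.26, 0.10, -0.04 and -0.14 in these 4 comparisons, and the median of all tested genes was 0.01, 0.02, 0.00 and 0.01. Without replicate 4 of the Fas-/- group at 3 weeks the sign of its median turned, to -0.38 with 3 of 10 genes positive, and without the 4 endothelial-rich libraries it was -0.39. The 4 comparisons share the naive libraries. At an unadjusted p under 0.05, 1 of the 10 was higher and 4 lower in Fas+/+ libraries at 3 weeks. In Fas-/- libraries at 3 weeks 2 were higher and 1 lower at that limit. At 6 weeks 1 was higher and 2 lower in Fas+/+, and 1 higher and 1 lower in Fas-/- libraries. In the same order of comparisons DESeq2 called 4, 1, 0 and 1 lower, and 1 higher in each. Shares of all genes at these limits are not given here.

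**Figure D2:**
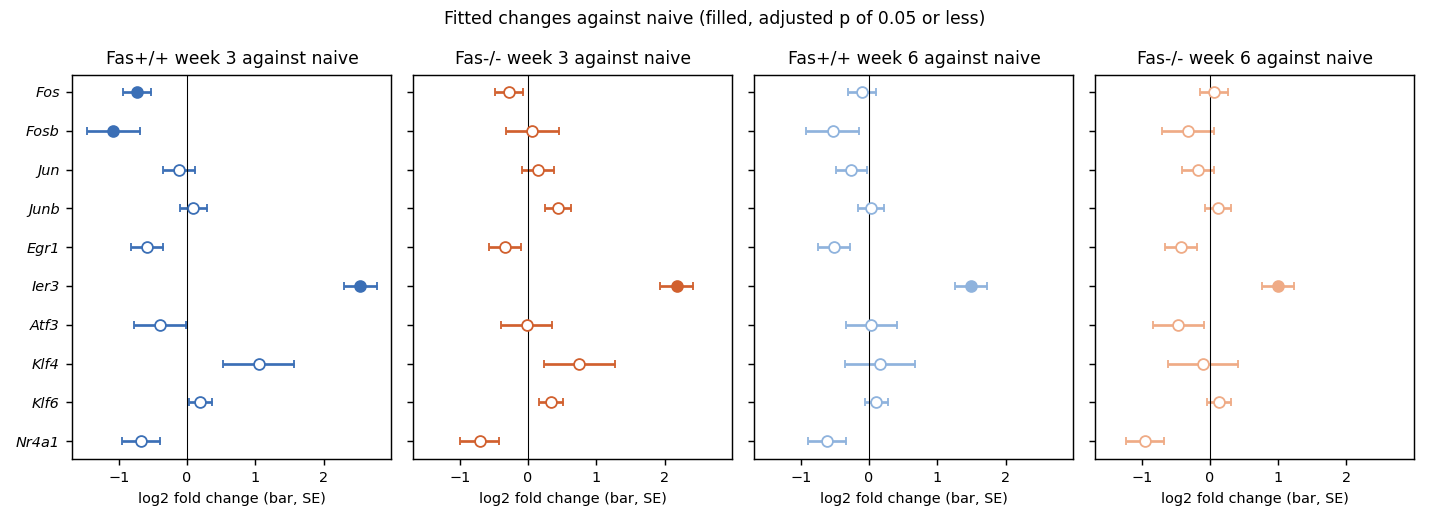
Log2 fold change against naive libraries (x axis) with its standard error for the 10 genes in each of the 4 injured groups, where filled points passed the test. Only Ier3 is filled in all 4, and Fos and Fosb are filled in Fas+/+ mice at 3 weeks.

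Fos (chr12:85473890-85477273, plus strand), the founding partner of AP-1, was lower in Fas+/+ libraries at 3 weeks. Its level was 1247, 1490, 1057 and 1257 CPM in naive libraries, and 840.3, 591, 647 and 953 CPM in Fas+/+ libraries at 3 weeks. No library of the Fas+/+ group reached the lowest naive one, and Fos fell by 0.74 on the log2 scale (SE 0.205, adjusted p = 0.00823). The Fas-/- libraries at 3 weeks were at 971, 802, 947 and 1427 CPM, which overlapped both other groups (log2 fold change against naive -0.29, adjusted p = 0.303). At 6 weeks its level was 1273, 1080, 783 and 1571 CPM in Fas+/+ and 1476, 1181, 1336 and 1264 CPM in Fas-/- libraries, overlapping the naive range in both. Fos was higher at 6 than at 3 weeks in Fas+/+ libraries (log2 0.64, SE 0.205, adjusted p = 0.0327), although the groups overlapped. That call was lost without replicate 2 or 3 of the Fas+/+ group at 3 weeks (adjusted p = 0.104 and 0.0949) and without replicate 1 or 4 at 6 weeks (0.0823 and 0.107).

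Fosb (chr7:19302696-19310051, minus strand), a Fos relative that also pairs with Jun proteins, followed Fos at 3 weeks. It was at 747, 1037, 798 and 894 CPM in naive libraries and at 501, 271, 294 and 578 CPM in Fas+/+ libraries at 3 weeks, with no overlap (log2 fold change -1.08, SE 0.388, adjusted p = 0.0332). Without naive replicate 2 or 4, or Fas+/+ replicate 2 or 3, the adjusted p lay between 0.0564 and 0.0986. The Fas-/- libraries at 3 weeks were at 574, 467.5 and 633 CPM in replicates 1 to 3 and at 1956 in replicate 4. The log2 fold change against naive was 0.06 with all 4 libraries and -0.65 without the endothelial-rich ones (adjusted p = 0.921 and 0.0824). At 6 weeks Fosb was at 658.5, 516, 326 and 904 CPM in Fas+/+ and 763, 578, 739.7 and 702 CPM in Fas-/- libraries, and it was not called against naive (adjusted p = 0.491 and 0.698).

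Jun, Junb and Atf3 complete the AP-1 genes among the 10, and none of them was called in any of the 4 comparisons with naive libraries. Jun (chr4:95049034-95052222, minus strand), the main partner of Fos, was at 1428 to 1951 CPM in naive and 1206 to 2027 CPM in Fas+/+ libraries at 3 weeks. Junb (chr8:84974484-84978718, minus strand), a Jun relative that can temper Jun activity, was at 621 to 866.5 CPM in naive and 848 to 1207 CPM in Fas-/- libraries at 3 weeks (log2 fold change 0.44, adjusted p = 0.092). Atf3 (chr1:191170296-191218039, minus strand), a stress-induced partner of AP-1 proteins, was at 91.4 to 169 CPM in naive and 62.5 to 127 CPM in Fas+/+ libraries at 3 weeks (log2 -0.40, adjusted p = 0.421). For all 3 genes the naive libraries overlapped every injured group. Atf3 in Fas-/- libraries at 3 weeks was at a log2 fold change of -0.02 against naive, and at -0.73 without the endothelial-rich libraries, where it was called lower (adjusted p = 0.0415).

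Egr1, on chromosome 18, encodes a zinc finger factor that growth factors and stretch induce. It was at 1671, 2181, 1693 and 1775 CPM in naive libraries and at 991, 1102, 1251 and 1520 CPM in Fas+/+ libraries at 3 weeks. These did not overlap, but the change just missed the test (log2 fold change -0.59, SE 0.235, adjusted p = 0.0526). DESeq2 called it lower (adjusted p = 0.0323), whereas with single libraries left out of the edgeR fit the adjusted p reached 0.137. In Fas-/- libraries at 3 weeks Egr1 was at 1205, 1140, 1242 and 2181 CPM, so that replicate 4 was level with the highest naive library. Without that replicate, Egr1 was called lower than naive (log2 -0.62, adjusted p = 0.0399). With all 4 libraries the log2 fold change was -0.34 (adjusted p = 0.278), and with other single libraries left out the adjusted p reached 0.497. At 6 weeks it was at 1355, 1172, 848 and 1732 CPM in Fas+/+ and 1858, 1034, 1243 and 1324 CPM in Fas-/- libraries, and was not called (adjusted p = 0.229 and 0.32).

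Nr4a1 (chr15:101254269-101274795, plus strand), an orphan nuclear receptor induced by many stimuli, was at 1143, 1352, 1434 and 995 CPM in naive libraries. In Fas+/+ libraries it was at 733, 686, 695 and 973 CPM at 3 weeks and 962, 860.2, 563 and 832.5 CPM at 6 weeks. All 8 of these libraries were below every naive one, and neither change passed the test (log2 fold change -0.67 and -0.61, adjusted p = 0.0633 and 0.235). DESeq2 called the gene lower in Fas+/+ libraries at 3 weeks (adjusted p = 0.0393) but not at 6 weeks (0.16). With single libraries left out of the edgeR fit, the adjusted p at 3 weeks reached 0.141. In Fas-/- libraries DESeq2 called it lower at 3 and at 6 weeks (adjusted p = 0.0346 and 0.00987). In Fas-/- libraries Nr4a1 was at 599, 514, 533 and 1365 CPM at 3 weeks and 942, 508, 574 and 520.1 CPM at 6 weeks. At 6 weeks all 4 were below the naive libraries (log2 -0.95, SE 0.283, adjusted p = 0.0515). Without replicate 1 the gene was called (log2 -1.21, adjusted p = 0.022), but with other single libraries left out the adjusted p reached 0.144. At 3 weeks the log2 fold change was -0.71 (adjusted p = 0.0624), and without replicate 4 it was -1.18 (adjusted p = 0.000998). With other single libraries left out the adjusted p there reached 0.151.

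Klf4 and Klf6 encode Krüppel-like zinc finger factors, and Klf4 is a textbook endothelial and epithelial regulator. Klf4 (chr4:55527143-55532466, minus strand) was at 187, 254, 246 and 221 CPM in naive libraries and at 964, 322, 253.5 and 339.5 CPM in Fas+/+ libraries at 3 weeks. The Fas-/- group at 3 weeks was at 226, 157, 182 and 964 CPM. The high library of each group was the one richest in blood endothelial markers, and neither group was called against naive (log2 fold change 1.05 and 0.75, adjusted p = 0.114 and 0.281). Without the 4 endothelial-rich libraries the Klf4 log2 fold changes were 0.42 and -0.28 at 3 weeks. At 6 weeks Klf4 was at 238, 337, 211 and 231.5 CPM in Fas+/+ and 109.6, 341, 189.9 and 206 CPM in Fas-/- libraries. Klf6 (chr13:5861482-5870394, plus strand) was at 232 to 258 CPM in naive and 266 to 428.5 CPM in Fas-/- libraries at 3 weeks, which did not overlap but did not pass the test (log2 0.33, adjusted p = 0.154). Without the endothelial-rich libraries the Klf6 log2 fold change there was 0.13.

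Ier3 (chr17:35821684-35822923, plus strand) encodes a small protein that limits cell death and modulates NF-κB and ERK signalling, and it was the least abundant of the 10 genes per length in naive libraries. It was at 32.8, 26.3, 27.0 and 18.96 CPM in naive libraries and at 127, 138, 189 and 157 CPM in Fas+/+ libraries at 3 weeks. The Fas-/- libraries at 3 weeks were at 105, 96.7, 83.1 and 190.4 CPM. Every library of both groups was above the highest naive one, with a log2 fold change of 2.54 (SE 0.244, adjusted p = 1.28e-06) in Fas+/+ and 2.18 (SE 0.241, adjusted p = 1.21e-05) in Fas-/- libraries. At 6 weeks Ier3 was at 64.2, 90.3, 74.4 and 67.6 CPM in Fas+/+ and 46.5, 69.3, 52.2 and 41.7 CPM in Fas-/- libraries, again all above naive. The log2 fold change was then 1.50 (SE 0.236, adjusted p = 0.000924) and 1.00 (SE 0.235, adjusted p = 0.0166). Each of these 4 comparisons had an exact permutation p of 0.0286 (two-sided), the smallest that 4 against 4 libraries can give.

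When single libraries were left out, the Ier3 log2 fold change against naive ran from 2.41 to 2.65 in Fas+/+ and from 1.84 to 2.29 in Fas-/- libraries at 3 weeks. At 6 weeks it ran from 1.37 to 1.62 and from 0.83 to 1.11, and the Fas-/- call was lost without naive replicate 4 (adjusted p = 0.0554) or Fas-/- replicate 2 (adjusted p = 0.0662). Without the 4 endothelial-rich libraries Ier3 was called higher than naive in all 4 comparisons, at log2 2.61, 1.84, 1.39 and 0.83. The libraries left at 3 weeks still exceeded the naive ones in summed blood endothelial markers. These were at 1890 to 2577 CPM in Fas+/+ and 501 to 876.3 in Fas-/- libraries, against 123.7 to 350.6 in naive libraries. This setting therefore does not remove endothelial RNA, and its part in the rise of Ier3 was not tested. Ier3 was lower at 6 than at 3 weeks, with no overlap, both in Fas+/+ (log2 -1.04, SE 0.232, adjusted p = 0.00388) and in Fas-/- libraries (log2 -1.18, SE 0.233, adjusted p = 0.00646). Group means in order were 153 ± 27.2 CPM in Fas+/+ and 119 ± 48.6 in Fas-/- libraries at 3 weeks, 74.1 ± 11.6 and 52.4 ± 12.0 at 6 weeks, and 26.3 ± 5.68 in naive libraries (SD, n = 4). Each group overlapped the next in that order, except that the Fas-/- libraries at 6 weeks were all above the naive ones.

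Between the genotypes, none of the 10 genes was called at either time by edgeR or by DESeq2. Of all tested genes, 0.165% were called higher in the Fas-/- group at 3 weeks and 0.00634% lower, and at 6 weeks 0.0254% in each direction. At an unadjusted p under 0.05, Fos and Fosb were higher in Fas-/- libraries at 3 weeks. Their log2 fold changes were 0.45 (SE 0.204, adjusted p = 0.545) and 1.14 (SE 0.389, adjusted p = 0.33), and both groups overlapped. Without replicate 4 of the Fas-/- group the Fosb difference was 0.45, and without the endothelial-rich libraries it was 0.54, with Fos at 0.30. Ier3 was lower at 6 weeks at an unadjusted p under 0.05, by log2 -0.50 (SE 0.231, adjusted p = 0.597). The shares of all genes at the unadjusted limit are not given here. The median log2 fold change of the 10 genes was 0.26 at 3 weeks and 0.05 at 6 weeks, against 0.00 for all genes. The median at 3 weeks was -0.04 without replicate 4 and -0.02 without the endothelial-rich libraries. Without the 4 endothelial-rich libraries, where 3.42% of genes were called higher and 4.71% lower at 3 weeks, Ier3 (log2 -0.77, adjusted p = 0.00562) and Klf4 (log2 -0.70, adjusted p = 0.0369) were called lower in Fas-/- libraries at 3 weeks. The genotypes still differed there in summed blood endothelial markers, at 1890 to 2577 CPM in Fas+/+ and 501 to 876.3 in Fas-/- libraries. The part of endothelial RNA in these calls was not tested.

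Between 3 and 6 weeks, 1 of the 10 genes was called higher (Fos) and 1 lower (Ier3) in Fas+/+ libraries, against 12.0% and 10.9% of all genes. In Fas-/- libraries 0 were called higher and 1 lower (Ier3), against 4.48% and 4.54% of all genes, and at an unadjusted p under 0.05 and by DESeq2 0 were higher as well. In Fas-/- libraries 1 of the 10 genes, Fos, had a positive log2 fold change and the median was -0.32. Without replicate 4 at 3 weeks 7 were positive and the median was 0.18, and without the endothelial-rich libraries 5 were positive and the median was 0.10. For the genotype by time interaction none of the 10 was called by edgeR or DESeq2, and none had an unadjusted p under 0.05, whereas 0% of all genes were called higher and 0.00634% lower. For both questions, shares of all genes by DESeq2 and at the unadjusted limit are not given here. The largest interaction estimates were -0.93 for Fosb (adjusted p = 0.749) and -0.87 for Atf3 (adjusted p = 0.769). Without replicate 4 of the Fas-/- group at 3 weeks they were -0.24 and -0.19, and without the endothelial-rich libraries -0.32 and -0.35.

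The 10 genes did not vary as a block over the 20 libraries. Correlations of deviations from the group means are descriptive here, and the points share library and group. Fos and Fosb (r = 0.933), Fosb and Jun (0.924), Jun and Atf3 (0.904) and Fosb and Atf3 (0.869) deviated together. Junb and Klf4 (r = -0.084) and Fos and Ier3 (0.154) did not. The mean log2 level of the blood endothelial markers deviated with Klf4 (r = 0.876), Klf6 (0.702), Atf3 (0.664) and Ier3 (0.619), but little with Fos (0.131) or Egr1 (-0.1). Other marker lists moved with these genes too, over all 20 libraries. Profibrotic fibroblast markers were at -0.82 with Klf4, -0.69 with Klf6 and -0.54 with Atf3, but at -0.158 with Ier3. Ier3 was at 0.672 with lymphatic endothelial markers and at -0.772 with Hhip myofibroblast markers. Without replicate 4 of the Fas-/- group at 3 weeks (19 libraries, on the log2 of CPM + 1), Fos and Fosb were at 0.961, Fosb and Jun at 0.863, Jun and Atf3 at 0.827 and Fosb and Atf3 at 0.726. The endothelial markers were then at 0.822 with Klf4, 0.568 with Klf6, 0.452 with Atf3, 0.404 with Ier3 and -0.598 with Egr1. These 19 libraries still held replicate 1 of the Fas+/+ group at 3 weeks, with Klf4 at 964.1 CPM and the highest endothelial markers of its group. The part of RNA from endothelial or other cell types in these levels was not tested.

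**Figure D3:**
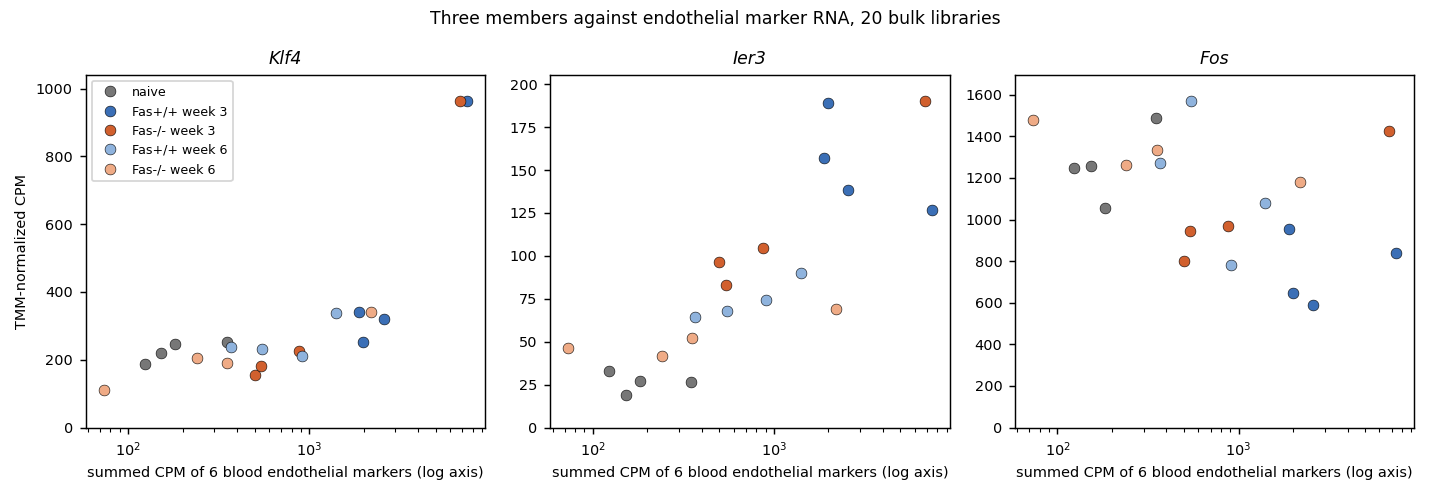
CPM of Klf4, Ier3 and Fos (y axes) against the summed CPM of 6 blood endothelial markers (log x axis) in the 20 bulk libraries, coloured by group. The 2 Klf4 values at 964 CPM belong to the libraries richest in endothelial markers at 3 weeks, whereas the 4 naive libraries lie below all 16 others for Ier3.

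The genes whose level over the 20 libraries most resembled the mean of the 10 standardized log2 levels were Mbd2 (r = 0.852), Ppp1r15a (0.848), Ier2 (0.812), Gm17024 (0.797), Sat1 (0.796), Gm37352 (0.789), Zfp36 (0.774), Rab7 (0.756), Cdk11b (0.754) and Ccnl1 (0.744). Pearson r weighs the library that stands apart heavily, and Spearman's rho gave another order, with Ppp1r15a at 0.862 and the other 9 between 0.435 and 0.657. Ier2, Zfp36 and Ppp1r15a are themselves early response genes on the lists described next.

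Other genes of the early response were counted by list, beside the share of all tested genes called in the same comparison. Those shares were 22.1% higher and 19.2% lower in Fas+/+ and 17.2% higher and 14.8% lower in Fas-/- libraries at 3 weeks, and at 6 weeks 3.57% and 1.74% and then 3.66% and 2.81%. Among 6 other AP-1 subunits, 3 were called higher and 1 lower in Fas+/+ libraries at 3 weeks, and 2 higher and 0 lower in Fas-/- libraries. The median log2 fold changes were 0.44 and 0.50. Fosl1, a Fos relative of injured and invasive cells, rose by log2 3.57 (adjusted p = 0.000405) and 2.99 (adjusted p = 0.00228), from a naive mean of 0.507 CPM. Its Fas+/+ libraries at 3 weeks ran from 0.785 to 10.46 CPM, and the lowest, replicate 1, lay within the naive range of 0.3877 to 0.8119. Batf3 rose by log2 2.71 and 2.96, also from a low level, at a naive mean of 0.495 CPM. Its lowest Fas+/+ library at 3 weeks, again replicate 1, was at 0.785 CPM and its highest naive library at 0.6892. Jund, an AP-1 subunit of resting cells, fell by 0.61 on the log2 scale in Fas+/+ libraries (adjusted p = 0.00999).

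Among 14 other early transcription factors, 8 were called higher and 1 lower in Fas+/+ libraries at 3 weeks, and 6 higher and 0 lower in Fas-/- libraries (medians 0.71 and 0.67), where 22.1% and 17.2% of all genes were called higher. Egr3 and Egr2, zinc finger relatives of Egr1, rose by log2 1.85 and 1.65 in Fas+/+ and by 1.37 and 1.30 in Fas-/- libraries. For both genes the Fas+/+ libraries overlapped the naive ones, whereas the Fas-/- libraries did not. In Fas+/+ libraries Egr3 was at 18.35 to 76.59 CPM (naive 10.95 to 21.35) and Egr2 at 25.42 to 138.3 (naive 23.72 to 34.02). For each gene only the lowest Fas+/+ library lay within the naive range. Klf2, a flow-responsive endothelial factor, rose by log2 1.52 in Fas+/+ libraries (adjusted p = 0.0245). Its libraries there ran from 266.3 to 960.7 CPM (SD 334), above the naive range of 131.6 to 180.3. Myc, a growth regulator, rose by log2 1.15 in Fas-/- libraries (adjusted p = 0.0179). At 6 weeks 0 were called higher and 1 lower in each genotype, namely Nr4a2, a relative of Nr4a1, at log2 -1.09 in Fas+/+ (adjusted p = 0.0106) and -1.41 in Fas-/- libraries (adjusted p = 0.00227).

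Of 15 feedback regulators, which damp the early response, 7 were called higher and 1 lower in Fas+/+ libraries at 3 weeks, and 7 higher and 0 lower in Fas-/- libraries (22.1% and 17.2% of all genes were higher). The largest rises were of Dusp2, a phosphatase of MAP kinases (log2 4.87 and 3.71, from a naive mean of 0.0723 CPM), and Tnfaip3, an inhibitor of NF-κB (log2 1.37 and 1.74). Dusp5, another MAP kinase phosphatase, rose by log2 1.37 and 1.28. Its lowest library at 3 weeks was at 15.26 CPM in Fas+/+ and 20.08 in Fas-/-, within the naive range of 9.265 to 25.72. Nfkbia, also an NF-κB inhibitor, was still called at 6 weeks (log2 0.84 and 0.80, adjusted p = 0.0252 and 0.0296), and Tnfaip3 in Fas+/+ libraries alone (log2 1.03, adjusted p = 0.0407).

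Of 9 secreted products of early response genes, 7 were called higher at 3 weeks in each genotype and 0 lower (medians 1.76 and 1.42), against the same 22.1% and 17.2% higher of all genes. Ccl2, which attracts monocytes, rose by log2 2.95 and 2.86, and Il6, an inflammatory cytokine, by 2.49 and 2.24. The lowest Fas+/+ library at 3 weeks was replicate 1 for both genes. It was also the lowest of its group in profibrotic fibroblast markers. In Fas+/+ libraries Ccl2 was at 4.563 to 43.87 CPM (naive 2.627 to 3.852). Il6 was at 4.661 to 49.98 CPM (naive 3.486 to 7.587), so its lowest library lay within the naive range. Areg, a ligand of the EGF receptor, was at 0 CPM in all naive libraries and at a mean of 1.17 and 1.39 CPM at 3 weeks. At 6 weeks Ccl2 alone was called, in Fas+/+ libraries (log2 2.48, adjusted p = 0.015).

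Heat shock chaperones, which dissociation also induces, gave 0 of 10 called against naive in any of the 4 comparisons, with medians between -0.12 and 0.23. At an unadjusted p under 0.05, 1 was lower in Fas+/+ libraries at 3 weeks and 1 higher in Fas-/- libraries at 6 weeks. Of 14 circadian clock genes, which follow the hour of harvest as well as cell state, 1 was called higher and 8 lower in Fas+/+ and 1 higher and 7 lower in Fas-/- libraries at 3 weeks, where 19.2% and 14.8% of all genes were called lower. Hlf (log2 -1.17 and -1.14) and Cry2 (-1.04 and -1.16) fell, and Ciart rose (log2 2.78 and 2.27). Ciart varied widely within the groups, at 5.495 to 24.63 CPM in Fas+/+ and 2.407 to 22.17 in Fas-/- libraries (mean 8.024, SD 9.46). Its naive range was 0.8657 to 2.006 CPM. The hour of harvest is not given in the sources used here, and its part in these levels was not tested. Between the genotypes, 0 genes of any of these 6 lists were called at either time, and at an unadjusted p under 0.05 each list gave between 0 and 2 genes in either direction. The shares of all genes at that limit are not given here, so the counts at it cannot be set against a background.

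At 6 weeks compared with 3 weeks, 12.0% of all genes were called higher and 10.9% lower in Fas+/+ libraries, and 4.48% and 4.54% in Fas-/- libraries. In this comparison of the weeks, 0 AP-1 subunits were called higher and 2 lower in Fas+/+ libraries, 0 early transcription factors higher and 5 lower, 1 feedback regulator higher and 4 lower, and 0 secreted products higher and 4 lower. The counts lower at 6 than at 3 weeks in Fas-/- libraries were 2, 6, 2 and 4, with 0 higher in each list. Egr3 fell by 1.65 on the log2 scale in Fas+/+ (adjusted p = 0.00205) and by 1.28 in Fas-/- libraries (adjusted p = 0.0249). Il6 fell by 2.08 and 2.41 (adjusted p = 0.00604 and 0.0092). For both genes the weeks overlapped in Fas+/+ libraries but not in Fas-/- libraries. In Fas+/+ libraries Egr3 was at 18.35 to 76.59 CPM at 3 weeks and 14.18 to 22.28 at 6 weeks. Il6 was at 4.661 to 49.98 and 3.349 to 11.78 CPM. For each gene only the lowest Fas+/+ library at 3 weeks reached the range at 6 weeks. Of the clock genes, 4 were called higher at 6 weeks and 0 lower in each genotype, and of the heat shock chaperones 1 was called higher, in Fas+/+ libraries (Hspb1, log2 0.54, adjusted p = 0.0354).

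In the single-cell data the 10 genes could be placed in cell classes. Of 13900 deposited barcodes, 12059 passed the filters (603 naive, 2664 Fas+/+ and 2608 Fas-/- at 3 weeks, 3240 Fas+/+ and 2944 Fas-/- at 6 weeks), and 543 barcode sequences occurred in more than 1 library. Median UMIs, or counted molecules, per cell ran from 5768 to 8896. Clusters were built without the 10 genes and without the lists above, and were named from marker genes as "-like" classes, with 2 of the 22 clusters left unnamed. Some cells carried markers that the sort should have removed. Blood endothelial-like cells were 1.49% of naive cells, 7.32% and 6.06% of Fas+/+ and Fas-/- cells at 3 weeks, and 28.6% and 6.76% at 6 weeks, so the Fas+/+ library at 6 weeks stood apart. These shares leave out an unnamed, shallow cluster of 237 cells, in which all 6 blood endothelial markers were higher than in the other cells. With 1 library per group no test between groups was possible, and the 95% Poisson intervals below cover counting error only.

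The order of the weeks also differed between the assays. In bulk, the summed level of 7 profibrotic fibroblast markers ran from 10880 to 56100 CPM in Fas+/+ and from 19590 to 48180 CPM in Fas-/- libraries at 3 weeks, and from 13470 to 18210 and from 17580 to 25190 CPM at 6 weeks, so the highest libraries were those at 3 weeks. Replicate 1 of the Fas+/+ group at 3 weeks was the library at 10880 CPM, where the others of its group were at 46040 to 56100. In the single-cell libraries, profibrotic fibroblast-like cells were 4.66% and 7.67% of cells at 3 weeks and 7.81% and 11.4% at 6 weeks. Naive values were 12420 to 17320 CPM in bulk and 1.49% of cells. A sum of RNA and a share of cells are unlike measures, and the share also depends on how many cells of other classes a library holds. Ier3, too, was higher at 3 weeks in bulk and at 6 weeks in single cells. No label or file used here settles this difference, so no single-cell value below is read as a change over time.

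Per 10000 UMIs of a library, the 10 genes together held 69.9 UMIs (95% interval 69.2 to 70.6) in the naive library. They held 55.8 (55.6 to 56.1) and 55.3 (55.0 to 55.7) in the Fas+/+ and Fas-/- libraries labelled week 3, and 59.9 (59.7 to 60.2) and 52.8 (52.5 to 53.0) in those labelled week 6. The naive library was the highest of the 5. Fos ran from 14.6 in the naive library to 8.16 in the Fas+/+ week 6 library, Egr1 from 9.71 to 5.33 and Nr4a1 from 4.12 to 1.66 in the Fas-/- week 6 library. Ier3 was lowest in the naive library, at 0.757, against 1.81, 1.19, 4.22 and 2.42 in the same order of libraries as above. Klf4 was at 2.06 to 2.76 in 4 libraries and at 5.30 in the Fas+/+ week 6 library, the library in which 28.6% of cells were blood endothelial-like.

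Cell classes differed more than libraries did. Hhip myofibroblast-like cells, which resemble contractile cells around the alveolar duct, had the highest summed level in 4 of 5 libraries and the second highest in the Fas+/+ week 6 library. They held 174 UMIs per 10000 in the naive library, 111 and 119 at week 3 and 81.5 and 93.4 at week 6. Pericyte-like cells, which wrap capillaries, held 13.1 in the naive library and 19.5 to 22.9 in the other 4, the lowest of any class with at least 20 cells apart from 20 platelet-like cells (3.82) in the Fas+/+ week 3 library. Both classes came through the same digestion and sort in each library, and whether digestion acts alike on both was not tested.

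Vascular smooth muscle-like cells held 107 UMIs per 10000 in the naive library and 66.5 to 77.5 in the others, and Col14a1 fibroblast-like cells 97.1 and 56.8 to 84.3. Lipofibroblast-like cells, the most abundant class except in the Fas+/+ week 6 library, held 57.9 and 42.3 to 53.0. In each of these 3 classes and in Hhip myofibroblast-like cells the naive library was the highest. In mesothelial-like cells it was the lowest (38.9 from 24 cells, against 55.6 to 73.5), and in pericyte-like cells likewise. Profibrotic fibroblast-like cells, of which the naive library held 9, were at 63.0 and 59.9 in the week 3 libraries and 44.6 and 44.1 in the week 6 libraries.

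**Figure D4:**
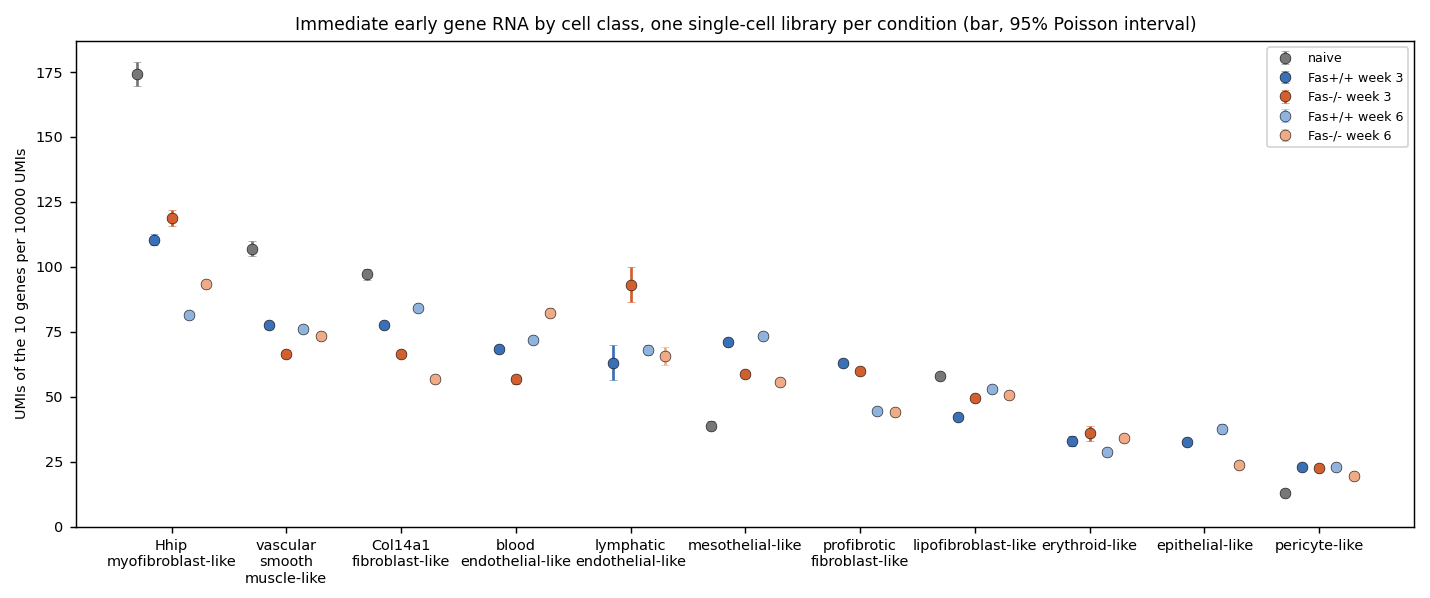
UMIs of the 10 genes per 10000 UMIs (y axis) in each cell class (x axis) and library (colours), with 95% Poisson intervals that cover counting error only. Hhip myofibroblast-like cells reach 174 in the naive library and pericyte-like cells stay between 13.1 and 22.9.

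Hhip myofibroblast-like cells had the highest median and pericyte-like cells the lowest at equal depth as well, among classes with a value. With each cell thinned to 3000 UMIs, and shallower cells left out, the median of the summed genes was 51, 33, 34, 25 and 26 UMIs per Hhip myofibroblast-like cell in the 5 libraries, from 48 to 98 cells. It was 2, 3, 4, 3 and 4 UMIs per pericyte-like cell, from 50 to 131 cells, and it was 9, 8, 10, 12 and 11 per lipofibroblast-like cell. Other classes changed places: in the Fas+/+ week 6 library the thinned median was 19 in Col14a1 fibroblast-like cells, which had the highest pooled level there, and in the Fas-/- week 6 library it was 13 in profibrotic and 11 in lipofibroblast-like cells, whose pooled levels were in the opposite order. Over all cells the thinned medians were 13, 11, 12, 16 and 13, so that the naive library, which had the highest pooled level, did not have the highest median cell. Within lipofibroblast-like cells of the naive library the interquartile range ran from 3 to 21 UMIs per cell, and within Hhip myofibroblast-like cells from 37.5 to 72.

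Erythroid-like cells, which are not fibroblasts, held 28.6 to 35.9 UMIs per 10000 in the 4 injured libraries, more than pericyte-like cells. Their cluster was shallow, at a median of 0.267 times the median UMIs of the library. Its 10 leading genes also held Igkc, Igha, Jchain, Lyz2 and Krt15, which are not among the red cell markers, so it may be mixed. The part of free RNA from broken cells in these levels was not tested. The share of mitochondrial UMIs moved with the level in some libraries. With the cells of a library split evenly into 4 bins from the lowest share to the highest, the summed level was 88.5, 76.6, 52.7 and 61.2 in the naive library and 68.7, 56.2, 47.3 and 53.0 in the Fas+/+ week 3 library. In the Fas-/- week 6 library it was 52.2, 52.9, 50.3 and 58.2, with the highest value in the last bin.

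The genes that made up the level differed by class. Fos, Junb, Jun and Egr1 led in Hhip myofibroblast-like cells, at 30.95, 41.7, 44.0 and 32.9 UMIs per 10000 in the naive library. In vascular smooth muscle-like cells Fos (28.2) and Jun (26.5) led in the naive library, with Egr1 at 12.2 and Junb at 12.5. In blood endothelial-like cells Jun (22.1 to 27.6) and Klf4 (14.8 to 20.3) led in all 4 injured libraries, with Fos at 1.96 to 3.08 and Egr1 at 0.955 to 1.44. Klf4 was at 0.555 to 0.904 in lipofibroblast-like cells of the 5 libraries, and at 5.24 to 5.71 in mesothelial-like cells. Klf6 was more even across the fibroblast classes, at 2.64 to 3.99 in lipofibroblast-like and 2.89 to 3.30 in Col14a1 fibroblast-like cells, and highest among named classes in lymphatic endothelial-like cells of the Fas+/+ week 3 library (13.8, from 21 cells). Nr4a1 was highest in Hhip myofibroblast-like cells in all 5 libraries, at 3.29 to 8.83.

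Ier3 was highest outside the fibroblast classes in every injured library. Epithelial-like cells were at 17.3, 13.0 and 10.5 UMIs per 10000 in the Fas+/+ week 3, Fas+/+ week 6 and Fas-/- week 6 libraries, the 3 that held at least 20 of them. Blood endothelial-like cells were at 6.06 and 4.23 in the Fas+/+ and Fas-/- libraries labelled week 3 and at 9.57 and 11.3 in those labelled week 6. Profibrotic fibroblast-like cells were at 1.62, 1.70, 4.59 and 3.98 in the 4 injured libraries. Lipofibroblast-like cells were at 0.519 in the naive library and 0.873, 0.722, 1.86 and 1.24 in the others. Ier3 was thus lowest in the naive library within lipofibroblast-like cells, as it was within Col14a1 fibroblast-like, mesothelial-like, pericyte-like and vascular smooth muscle-like cells. In Hhip myofibroblast-like cells it was not, with 2.80 in the naive and 2.18 in the Fas+/+ week 3 library. In bulk, the summed level of 8 epithelial markers was 61.9 to 146 CPM in naive libraries and 148.5 to 1535 CPM in the 16 others, and its part in the bulk rise of Ier3 was not tested.

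**Figure D5:**
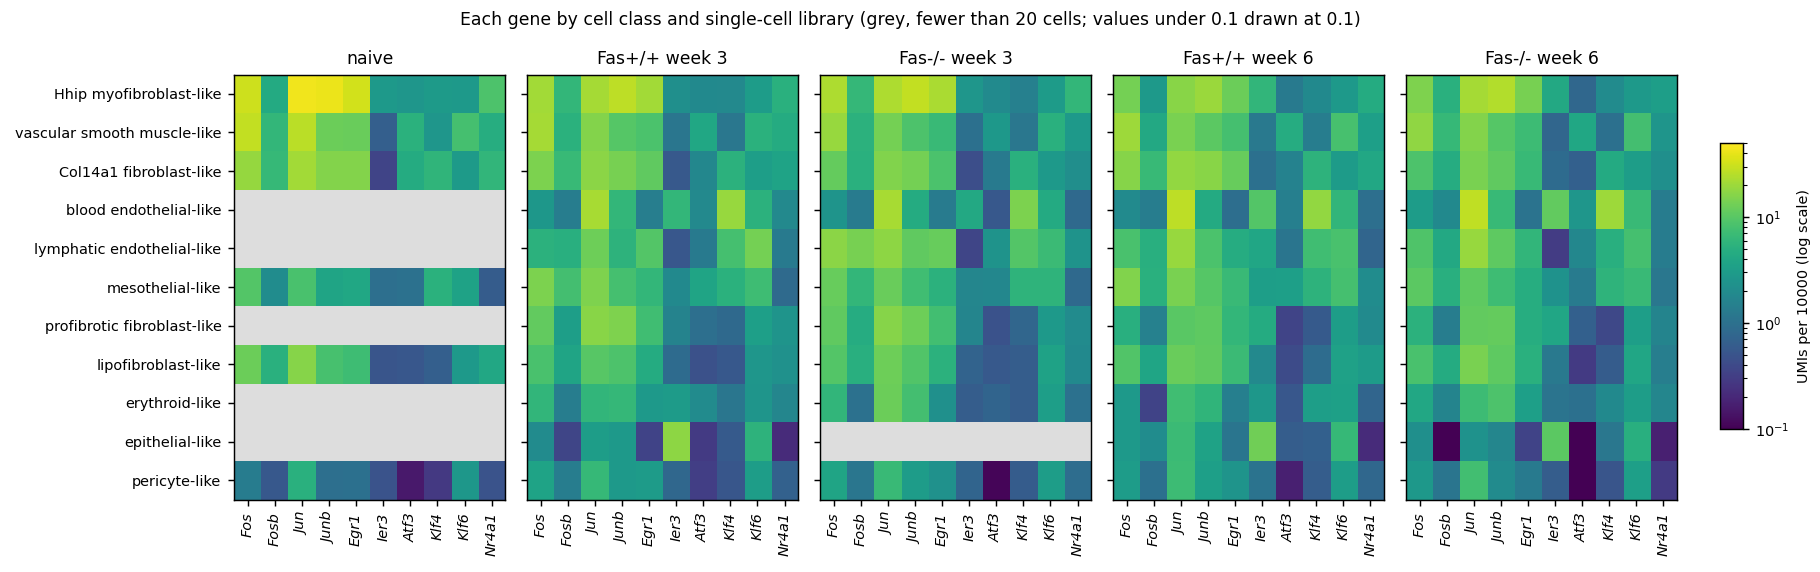
Heat maps of UMIs per 10000 (log colour scale) for each of the 10 genes (columns) by cell class (rows) in the 5 libraries, with classes under 20 cells in grey and values under 0.1 drawn at 0.1. In the injured libraries Klf4 is at 14.8 to 20.3 in the blood endothelial-like row and Egr1 at 12.3 to 22.5 in the Hhip myofibroblast-like row.

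Within lipofibroblast-like cells the clusters differed as well. The cluster led by Saa3 and Lcn2 held 49.8 to 77.0 UMIs of the 10 genes per 10000 in the 5 libraries, and the other large cluster 28.01 to 45.7. The first of these carried the markers of the class more weakly, at a mean log2 excess of 0.72 against 2.12. At the coarser resolution of 0.4 a cluster of 1936 cells led by the same genes reached 0.33 and stayed unnamed, so its place in the class depends on the resolution.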

How the data were processed

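RNA was measured in 20 bulk libraries and 5 single-cell libraries, and each library was grouped by its label alone. The bulk raw counts used here are those the authors deposited, made with skewer (trimming), HISAT2 (alignment, GRCm38) and htseq-count (Ensembl genes). For single cells the deposited values are UMI counts per barcode from Cell Ranger. The deposited normalized table and the columns of the authors' own comparisons were not used, and 0 sample columns were left unmatched.

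Counts were filtered with filterByExpr (minimum count 10), scaled by TMM and fitted over all 5 groups with the quasi-likelihood test of edgeR 4.0.16 in R 4.3.3, with p-values adjusted by Benjamini-Hochberg over all tested genes. The fit was tested on simulated data. Alternatives were DESeq2 1.42.0, RLE scaling, no filter, a fit of the compared groups alone, a replicate block, each library left out, and the endothelial-rich libraries left out.

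Cells were kept if they had 200 to 7500 genes and no more than 20% of UMIs from mitochondria. Clusters came from integrated sctransform values (20 components, resolution 0.8), without 78 genes of the lists described. No doublets were removed, because the caller marked 49 of 12059 cells (0.4063%) and is taken not to have worked. Exact Poisson intervals (95%, scipy 1.17.1) cover counting error only. Classes with under 20 cells in a library are not given.

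The 10 genes, the gene lists and the tests were chosen with earlier results of these data known. All 10 genes are named, with up to 3 called genes of the largest change per list and the 10 genes most like their mean. Same-numbered replicates were not paired by any label.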

Additional observations from a re-analysis of the deposited data

Results flagged for a closer look

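In 11 of 55 group values examined (each gene, and the sum of the 10, in each bulk group of 4), the highest library was farther from the others than Dixon's 95% critical value allows. Chance gives about 1 in 20 only for normally distributed values, and the CPM values were not transformed. The share of all genes flagged by this rule is not given here, so 11 of 55 is not read as an excess. The 55 values share libraries and the sum contains the 10 genes, so they are not independent and their count is not a test. Replicate 4 of the Fas-/- group at 3 weeks accounts for 8 of the 11. It was at 1956 CPM for Fosb, 2919 for Jun, 2181 for Egr1, 268.2 for Atf3, 964.2 for Klf4, 428.5 for Klf6 and 1365 for Nr4a1, and at 12910 CPM for the sum. It was also the library of its group richest in blood endothelial markers and lowest in profibrotic fibroblast markers. Fos, Junb and Ier3 were highest in this library too, but not beyond that value.

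The other 3 concerned Klf4 and Nr4a1. Klf4 was at 964.1 CPM in replicate 1 of the Fas+/+ group at 3 weeks. That library was the richest of its group in blood endothelial markers and the lowest in profibrotic fibroblast markers. Nr4a1 was at 972.8 CPM in replicate 4 of the Fas+/+ group at 3 weeks and at 941.6 CPM in replicate 1 of the Fas-/- group at 6 weeks. The part of RNA from endothelial or other cell types in these values was not tested.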

How the results depend on the processing

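No called log2 fold change of the 10 genes reversed under the alternatives run, and of their values 1219 kept their direction and side of the threshold, 86 changed sign with no call in either fit, 24 gained a call and 11 lost one. The number called lower in Fas+/+ libraries at 3 weeks, 2 against naive, was 4 with the compared groups alone, 4 by DESeq2, 4 without the endothelial-rich libraries, 1 at a fold limit of log2 1, and 1 to 4 with a library left out. In Fas-/- libraries at 3 weeks it was 0, and became 1 under the replicate block and 1 by DESeq2. It was 3 without the endothelial-rich libraries and 0 to 2 with a library left out. Of all genes, 24.3% (Fas+/+) and 18.8% (Fas-/-) were called lower at 3 weeks without the endothelial-rich libraries. In the main fit these shares were 19.2% and 14.8%. Shares of all genes under the other alternatives are not given here. At 6 weeks against naive, 1 was called lower in Fas+/+ libraries with the compared groups alone, and in Fas-/- libraries 1 under RLE scaling, 1 with the compared groups alone, 1 by DESeq2, 1 without the endothelial-rich libraries and 0 to 1 with a library left out. Without the endothelial-rich libraries 5.4% of all genes were called lower in Fas-/- libraries at 6 weeks, against 2.81% in the main fit. The 1 gene called higher in Fas-/- libraries at 6 weeks became 0 at a fold limit of log2 1 and 0 to 1 with a library left out. Between the genotypes at 3 weeks, 2 were called lower without the endothelial-rich libraries, where 4.71% of all genes were. The 1 gene called higher at 6 than at 3 weeks in Fas+/+ libraries became 0 with the compared groups alone, 0 at the fold limit and 0 to 1 with a library left out. The cause of these moves was not tested, apart from the fewer libraries and the stricter limit by construction.

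Under the replicate block, Egr1 was called lower in Fas+/+ (log2 -0.61, adjusted p = 0.0308) and Nr4a1 in Fas-/- libraries at 3 weeks (log2 -0.79, adjusted p = 0.0457), and no other call of the 10 genes changed. Same-numbered libraries did not deviate together in every comparison (correlations from -0.678 to 0.434), so the numbers are not taken as pairs. The log2 ratio of the summed level to naive, -0.35 in Fas+/+ libraries at 3 weeks and -0.25 in Fas-/- libraries at 6 weeks, was -0.012 and -0.128 as a mean over the genes' log2 CPM. In single cells the summed level per 10000 UMIs was 66.5, 57.4 and 51.5 with all barcodes in the naive, Fas+/+ week 6 and Fas-/- week 6 libraries, and 55.1, 54.9 and 51.7 with at most 10% mitochondrial UMIs in the Fas+/+ week 3, Fas-/- week 3 and Fas-/- week 6 libraries. Classes from marker UMIs alone moved the class levels by 0.651 to 1.33 times, and resolution 0.4 by 0.764 to 1.19 times. Leaving out doublets was not run.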
